A study of Homo sapiens with 4 samples.

Results

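The genes described here encode the cap-binding protein eIF4E, its relative eIF4E3 and the 3 4E-BP repressors. They are *EIF4EBP1*, *EIF4EBP2*, *EIF4EBP3*, *EIF4E* and *EIF4E3*, 5 of the 20457 features in the expression tables, and they were found by an exact match of the symbol. They were selected on the measured difference between the groups: *EIF4EBP1* had the largest decrease after CNOT4 depletion and its paralogue *EIF4EBP2* was higher. Differences between the groups in these 5 genes are therefore given as descriptions, without a test. All 5 had a mean of at least 1 TPM (an abundance normalized for transcript length and scaled to a fixed library total) over the libraries.

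RNA was sequenced in 4 libraries of HEK293, a widely used cell line of human embryonic kidney origin. The siControl group (2 libraries, genotype WT in the labels) received a negative control siRNA, and the siCNOT4 group (2 libraries, labelled CNOT4 knockdown) an siRNA against CNOT4. Both were exposed to 10 nM siRNA for 72 h, and libraries were made from poly(A) RNA with a stranded kit. Here CNOT4 depletion names treatment with the siRNA against CNOT4. The *CNOT4* mRNA was at 6.43 and 4.73 TPM in siControl and 3.38 and 3.81 TPM in siCNOT4, a decrease that did not pass the test used below. CNOT4 is a ubiquitin ligase with a RING finger and a partner of the CCR4-NOT deadenylase, and the stated purpose was to learn whether it links codon usage to expression. The labels do not say that replicates came from separate cultures, so p-values measure the spread between these libraries, which may be technical.

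Translation of most cellular mRNAs starts when eIF4E binds the 5′ cap and recruits the scaffold eIF4G, which brings in the helicase eIF4A. The 4E-BPs compete with eIF4G for the same surface of eIF4E through a short shared motif, and phosphorylation by the kinase complex mTORC1 releases them from eIF4E. *EIF4EBP1* is also a known transcriptional target of ATF4, the main transcription factor of the integrated stress response.

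The 7 codons of the eIF4E-binding motif are shown for 2 of the 4E-BP genes, on chromosomes 10 and 5, because the 4E-BPs bind eIF4E through a motif of this kind. Capitals mark the bases that differ between the 2 genes, in GENCODE 29 transcripts.
EIF4EBP2: taTgacAgaaagttTctgTtg
EIF4EBP3: taCgacCgaaagttCctgCtg
They differ at 4 of 21 bases, 2 of them at the third position of a codon, and all 7 codons encode the same amino acid in both. The *EIF4EBP2* and *EIF4EBP3* mRNAs thus encode the same 7 residues at this motif.

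The 3 4E-BP genes lie on different chromosomes and their mRNAs differ greatly in length. Coordinates are those of GENCODE 29 on GRCh38, whereas the authors' build was hg19, so they locate the genes but were not used for counting. *EIF4EBP1* lies on chromosome 8 (38030341 to 38060365), *EIF4EBP2* on chromosome 10 (70404379 to 70428618) and *EIF4EBP3* on chromosome 5 (140547666 to 140549578), all on the plus strand. *EIF4E* lies on chromosome 4 (98871684 to 98930637) and *EIF4E3* on chromosome 3 (71675416 to 71754773), both on the minus strand. The coding sequences of the 4E-BPs are similar in size, at 357, 363 and 303 nt for *EIF4EBP1*, *EIF4EBP2* and *EIF4EBP3*. Their longest coding transcripts measure 1020, 7257 and 691 nt. The corresponding transcripts of *EIF4E* and *EIF4E3* measure 11523 and 9949 nt, so 2 members are short and 3 are long against a median of 3340 nt over 13738 tested features. Translated from these coding sequences, the 4E-BP proteins were identical at 59.5% of aligned residues for *EIF4EBP1* and *EIF4EBP2*, 59.0% for *EIF4EBP1* and *EIF4EBP3*, and 61.0% for *EIF4EBP2* and *EIF4EBP3*. The eIF4E relatives were less alike, at 35.4% between *EIF4E* and *EIF4E2* and 31.3% between *EIF4E* and *EIF4E3*.

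*EIF4EBP1*, the best-studied 4E-BP, was the most abundant of the 5 mRNAs in control cells and the one that differed most between the groups. Its level was 409 and 501 TPM in siControl replicates 1 and 2, and 32.5 and 30.9 TPM in siCNOT4 replicates 1 and 2. Both siCNOT4 libraries lay far below both siControl libraries, with group means of 455 ± 65.4 and 31.7 ± 1.07 TPM (SD, n = 2 each) and a 14.4-fold lower mean after CNOT4 depletion. On the log2(TPM + 1) scale, which is used for all differences below and understates changes of low values, the difference was -3.80. In bulk RNA, fewer cells with a transcript and less of it per cell cannot be told apart. The difference between the siControl replicates was 0.29 and that between the siCNOT4 replicates -0.067. Taking each siCNOT4 library against each siControl library (4 pairs), the difference ranged from -3.98 to -3.62. None of 14208 tested features had a lower difference, which is how this gene was chosen, and 10.6% of them had both siCNOT4 libraries below both siControl libraries. Just outside that choice stood *NUPR1*, a stress-induced transcription cofactor, with a difference of -2.76, and *GDF15*, a stress-induced cytokine, with -2.14.

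*EIF4EBP2*, the 4E-BP best known from the nervous system, was higher in siCNOT4. Its level was 33.3 and 19.1 TPM in siControl, against 53.7 and 54.3 TPM after CNOT4 depletion. The groups did not overlap, and the means were 26.2 ± 10.1 and 54.0 ± 0.426 TPM (SD, n = 2 each), a 2.06-fold higher mean in siCNOT4. The log2 difference was 1.07, against -0.77 between the siControl replicates (replicate 2 minus replicate 1). Leaving out siControl replicate 1 made it 1.46, and leaving out replicate 2 made it 0.68. The position of *EIF4EBP2* among all genes was unremarkable: 12144 of 14208 tested features had a lower difference, the median over all of them was 0.50, and 66.4% of them had both siCNOT4 libraries above both siControl libraries. The groups did not overlap, in either direction, in 77.1% of all tested features. Relative to that median, *EIF4EBP2* was higher by 0.57 and *EIF4EBP1* was at -4.30.

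*EIF4EBP3*, the third and shortest 4E-BP, did not separate the groups in TPM as deposited. It was at 29.7 and 46.2 TPM in siControl and at 29.4 and 38.7 TPM in siCNOT4, and these ranges overlap. The log2 difference was -0.13, smaller than the differences between replicates of 0.62 in siControl and 0.38 in siCNOT4, and it was 0.18 without siControl replicate 2. Relative to the median of all tested features it was at -0.63. The log2 difference was -0.73 after median-ratio scaling and -0.55 after quantile normalization, so its size depended on the scaling. Its values are uncertain for another reason. In GENCODE 29, 507 of its 691 exon bases (73.4%) also belong to *ANKHD1-EIF4EBP3*, a readthrough transcript that joins it to the upstream gene *ANKHD1*. The readthrough symbol had 57.2 and 33.7 TPM in siControl and 77.8 and 80.9 TPM in siCNOT4, 1.01 to 1.07 times the level of *ANKHD1* in every library. How the authors assigned reads that fall in shared exons is not given in the sources used here. *EIF4EBP3* itself did not follow the readthrough symbol, since its level relative to that symbol was 0.519 and 1.37 in the siControl libraries, against 0.378 and 0.478 after CNOT4 depletion.

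*EIF4E*, which encodes the cap-binding subunit itself, differed little. It was at 13.5 and 9.95 TPM in siControl and at 13.8 TPM in both siCNOT4 libraries. The siCNOT4 values lay above both siControl values, but siControl replicate 1 was close to them. The log2 difference was 0.24, and it was 0.036 without siControl replicate 2, -0.33 after median-ratio scaling (each library divided by its median ratio to the geometric mean of all) and -0.36 after quantile normalization. The direction for *EIF4E* thus depended on the scaling.

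*EIF4E3*, a divergent cap-binding relative, showed overlapping groups in TPM as deposited. It was at 14.1 and 8.68 TPM in siControl and at 11.3 TPM in both siCNOT4 libraries, which lay between the siControl values. The log2 difference was 0.026, against -0.64 between the siControl replicates. It was -0.53 after median-ratio scaling and -0.58 after quantile normalization, and -0.47 relative to the median of all tested features in TPM as deposited. In GENCODE 29, 6.8% of its exon bases also belong to another protein-coding gene on the same strand, and 2.8% lie opposite *GPR27*. How the authors assigned reads in shared bases, and whether their counting used strand, is not given in the sources used here.

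**Figure D1:**
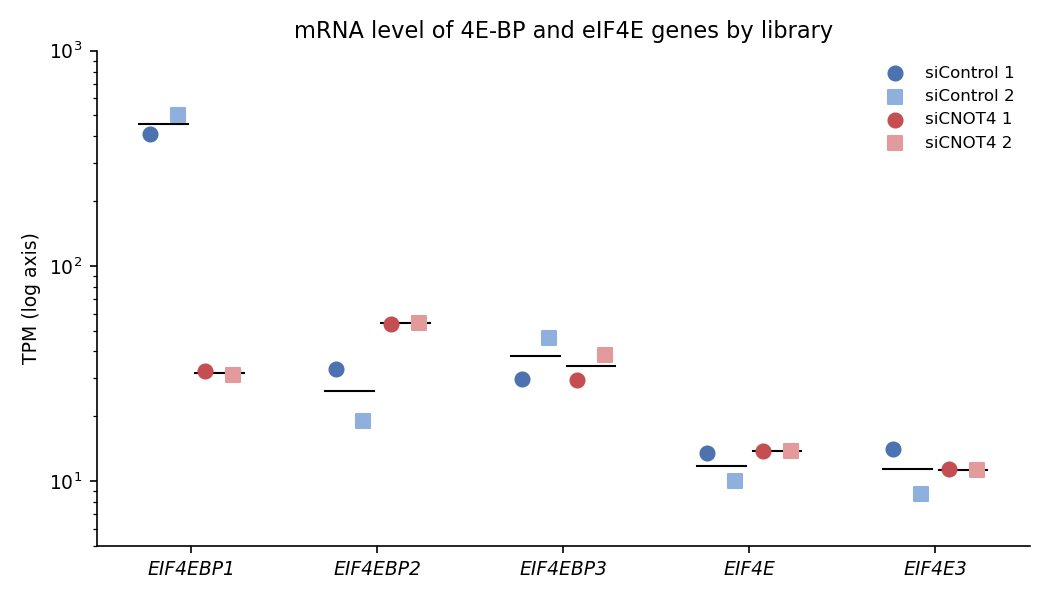
TPM on a log axis for the 5 genes in each of the 4 libraries, with a black bar at each group mean of 2 libraries. *EIF4EBP1* is at 409 and 501 TPM in siControl and at 32.5 and 30.9 TPM in siCNOT4, *EIF4EBP2* is higher in siCNOT4, and the other 3 genes have siCNOT4 values within or close to the siControl range.

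The order of the 5 levels changed with the group. TPM is per length, so levels can be set side by side within a library, as far as the authors' transcript lengths fit the mRNAs present. In siControl *EIF4EBP1* stood above all others, and *EIF4EBP3* (mean 38.0 TPM) and *EIF4EBP2* (26.2 TPM) followed with overlapping values, as did *EIF4E* (11.7 TPM) and *EIF4E3* (11.4 TPM). In siCNOT4 *EIF4EBP2* (54.0 TPM) came first, *EIF4EBP3* (34.1 TPM) and *EIF4EBP1* (31.7 TPM) overlapped, and *EIF4E* (13.8 TPM) and *EIF4E3* (11.3 TPM) were lowest.

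Ratios within a library do not depend on scaling between libraries, and they describe the make-up of 4E-BP mRNA. They set short mRNAs against long ones, so library differences that follow transcript length, described below, can enter them. No ratio was corrected for length. *EIF4EBP1* accounted for 86.6% and 88.5% of the summed 4E-BP TPM in siControl and for 28.1% and 25.0% in siCNOT4. *EIF4EBP2* accounted for 7.06% and 3.36% in siControl and for 46.5% and 43.8% in siCNOT4. The paralogue with the most mRNA was *EIF4EBP1* in both siControl libraries and *EIF4EBP2* in both siCNOT4 libraries. *EIF4EBP3* held 6.29% and 8.16% against 25.5% and 31.2%, a larger share of a smaller sum.

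The 4E-BP genes summed to 472 and 567 TPM in siControl and to 116 and 124 TPM in siCNOT4. Per unit of *EIF4E* TPM, siControl had 35.1 and 56.9 and siCNOT4 had 8.35 and 8.97. The siCNOT4 mean of this ratio was 0.188 of the siControl mean, or 0.247 without siControl replicate 2, and both siCNOT4 libraries lay below both siControl libraries. The ratio of *EIF4EBP1* to *EIF4E* was 30.4 and 50.4 against 2.34 and 2.24, whereas that of *EIF4EBP2* to *EIF4E* was 2.48 and 1.91 against 3.88 and 3.93. These are ratios of mRNA levels, and protein or its phosphorylation was not measured.

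**Figure D2:**
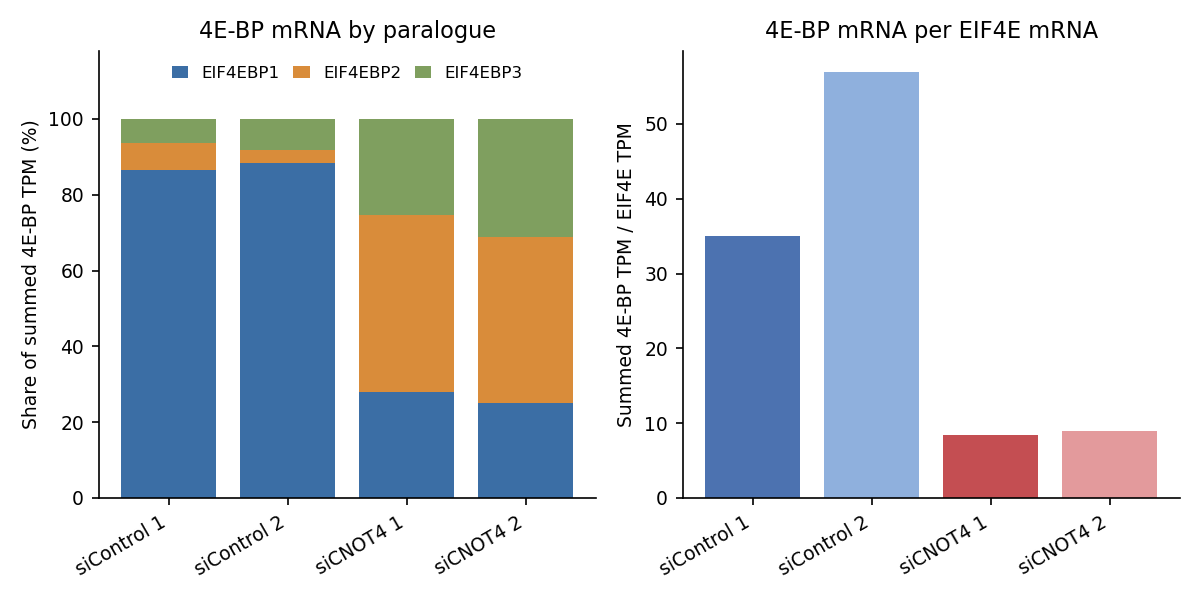
Left, share of each 4E-BP gene in the summed 4E-BP TPM of each library, in percent; right, summed 4E-BP TPM divided by *EIF4E* TPM in each library. *EIF4EBP1* holds 86.6% and 88.5% of the sum in siControl and 28.1% and 25.0% in siCNOT4, and the ratio is 35.1 and 56.9 against 8.35 and 8.97.

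A difference between the siControl libraries bears on several of these values. Over all tested features siControl replicate 2 was lower than replicate 1 by a median of 0.38, and this difference followed transcript length (Spearman rho -0.615 across 13738 features, which are not independent and share the same 2 libraries). The members followed the same pattern. The short mRNAs *EIF4EBP1* and *EIF4EBP3* were higher in siControl replicate 2 by 0.29 and 0.62, and the long mRNAs *EIF4EBP2*, *EIF4E* and *EIF4E3* were at -0.77, -0.40 and -0.64. Between the groups the same correlation was 0.382. With a trend on length removed from each library, an alternative chosen after seeing the data, the log2 difference was -3.30 for *EIF4EBP1*, 0.85 for *EIF4EBP2*, 0.44 for *EIF4EBP3*, -0.11 for *EIF4E* and -0.29 for *EIF4E3*, where the median of all features was 0.56.

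**Figure D3:**
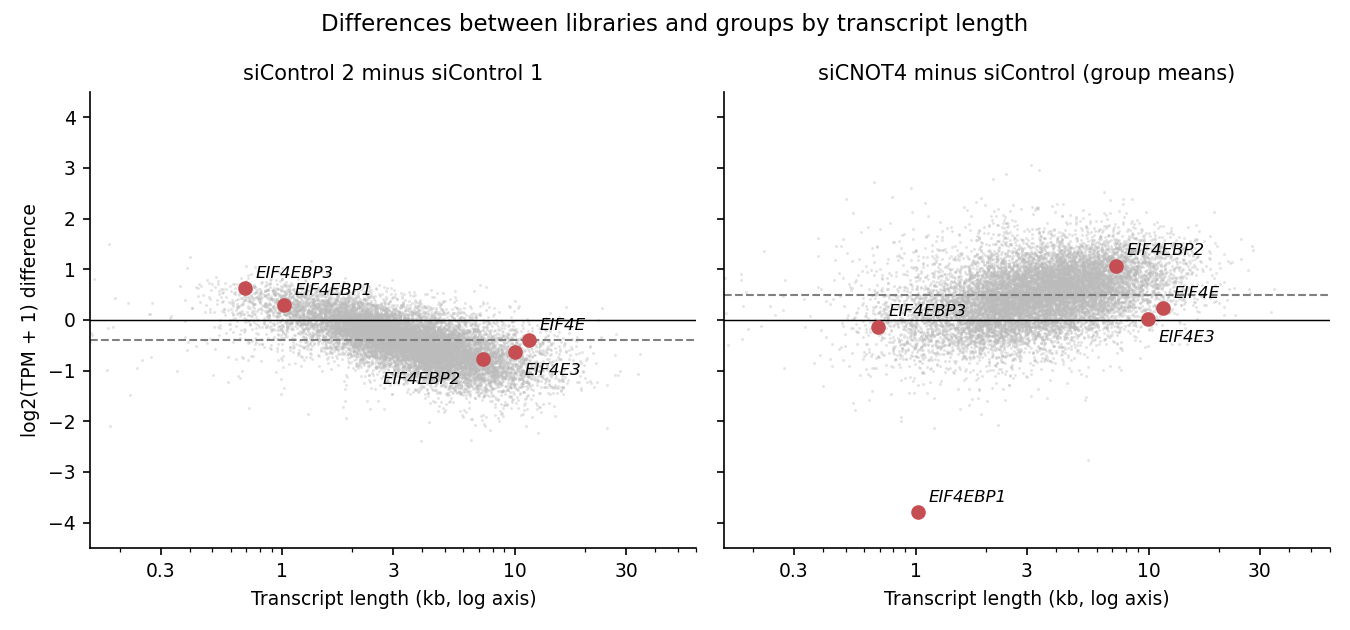
Each grey point is a tested feature, with transcript length in kb on a log x axis and the difference of log2(TPM + 1) on the y axis: siControl replicate 2 minus replicate 1 on the left, siCNOT4 minus siControl means on the right. Dashed lines mark medians, and the 5 members are in red. In the left panel the short *EIF4EBP1* and *EIF4EBP3* lie above 0 and the 3 long mRNAs below, and in the right panel *EIF4EBP1* lies at -3.80, below every other feature.

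The codon measure of the study also set the paralogues apart from *EIF4E*. GC3, the percentage of codons with G or C at the third base, was 76.5% for *EIF4EBP1*, 65.3% for *EIF4EBP2* and 73.3% for *EIF4EBP3*, against a median of 58.9% over 12877 tested features with a complete coding sequence. It was 41.0% for *EIF4E* and 54.2% for *EIF4E3*. The 3 4E-BP genes were thus above the median in GC3 and the cap-binding genes below it. *EIF4EBP1* (percentile 82.1) and *EIF4EBP3* (percentile 75.9) were close in GC3 and short in length, and their log2 differences were -3.80 and -0.13. The part of codon content and length in these values was not tested.

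The features whose profile over the 4 libraries was most like that of a member were found by Euclidean distance between mean-centred log2(TPM + 1) values, among 11394 other features with a mean of at least 5 TPM. For *EIF4EBP1* they were *NUPR1* (distance 1.08), *GDF15* (1.67), *TSC22D3* (1.77), *NME2* (1.90) and *PYCR1* (2.00). *PYCR1*, an enzyme of proline synthesis, was at 94.6 and 70.5 TPM in siControl and 22.7 and 21.01 TPM in siCNOT4. Those near *EIF4EBP2* included *SEC23IP* (0.020), *TRAF6* (0.026), *FBXO48* (0.026) and *TEX2* (0.033), and 666 features lay within 0.2. *SEC23IP*, which encodes a partner of the COPII coat protein SEC23, was at 26.2 and 14.6 TPM in siControl and 42.3 and 42.5 TPM in siCNOT4. The profile of *EIF4EBP2* was thus shared by many features. No feature lay within 0.2 of *EIF4EBP1*. That gene was chosen as the lowest difference of all, so its larger distances are not independent of the choice.

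The other genes of the pathway were taken from lists, and the difference between groups was tested for them with limma across all 14208 features. The lists were chosen with earlier results of these data known, so their counts of calls and their medians are descriptions, not independent support. Over all features 1792 had an adjusted p under 0.05 (12.6%), 1608 of them higher (11.3%) and 184 lower (1.3%) in siCNOT4. The share of higher features among the called ones was 89.7% for TPM as deposited, 42.3% after median-ratio scaling and 46.4% after quantile normalization. Of 45 listed genes, 44 were tested and 9 were called, 4 higher and 5 lower. After median-ratio scaling 7 were called, 1 higher and 6 lower. In TPM as deposited the 44 tested genes had a median difference of 0.45, against 0.50 over all features. After median-ratio scaling these medians were -0.15 and -0.055.

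Among 12 tested genes of cap binding and the eIF4F complex, *EIF4E2* rose and *EIF4A1* fell, and 10 did not pass. *EIF4E2* encodes 4EHP, a cap-binding relative that represses translation and does not bind eIF4G. It was at 149 and 183 TPM in siControl and 304 TPM in both siCNOT4 libraries, all above the siControl values (log2 difference 0.88, SE 0.16, limma adjusted p = 0.0319). Its ratio to *EIF4E* was 22.0 in both siCNOT4 libraries, against 11.1 and 18.4 in siControl. *EIF4A1*, the helicase of eIF4F, was at 2636 and 2345 TPM against 1525 and 1509 TPM, with no overlap (log2 difference -0.71, limma adjusted p = 0.0288). After median-ratio scaling the log2 difference of *EIF4E2* was smaller, at 0.27 (limma adjusted p = 0.532), and that of *EIF4A1* was larger, at -1.33 (limma adjusted p = 0.0616). After quantile normalization they were 0.78 and -0.38 (limma adjusted p = 0.0338 and 0.101). Without siCNOT4 replicate 1 the differences were 0.88 and -0.72, close to those with all libraries, and the limma adjusted p was 0.196 and 0.258.

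The scaffold genes did not pass. *EIF4G1* was at 131 and 87.1 TPM in siControl and 178 and 204 TPM in siCNOT4 (log2 difference 0.83, limma adjusted p = 0.0581), and *EIF4G3* had a log2 difference of 0.72. *EIF4A2*, the second eIF4A helicase, had 238 and 199 TPM against 210 and 204 TPM. *EIF4E1B*, an oocyte relative of eIF4E, was at most 0.208 TPM and was not tested. In TPM as deposited the list's median difference was 0.68, and 10 of 12 genes had both siCNOT4 libraries above both siControl libraries, against 66.4% of all features. These values depend on the scaling. After median-ratio scaling the log2 differences were 0.23 for *EIF4G1*, 0.12 for *EIF4G3* and -0.68 for *EIF4A2*.

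None of 7 genes for other eIF4E-binding proteins was called by limma, and 2 had an unadjusted p under 0.05, as did 5974 of all 14208 features. They had a median difference of 0.41, below that of all features. *EIF4ENIF1*, whose product 4E-T carries eIF4E into the nucleus and to P-bodies, was at 35.6 and 27.7 TPM against 40.3 and 44.1 TPM. *GIGYF2*, the partner of 4EHP, had 32.2 and 18.2 TPM against 27.7 and 28.7 TPM, with overlapping groups.

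Among 18 genes for mTORC1 and other regulators of the 4E-BP and eIF4E proteins, *MTOR* and *CUL3* rose, *MLST8* and *DDIT4* fell, and 14 did not pass. *MTOR*, the kinase that phosphorylates 4E-BPs, was at 36.0 and 17.3 TPM in siControl and 77.8 and 79.0 TPM in siCNOT4 (log2 difference 1.61, SE 0.34, limma adjusted p = 0.0423). *MLST8*, a subunit that binds the kinase domain of mTOR, moved the other way, with 131 and 121 TPM against 47.5 and 47.6 TPM (log2 difference -1.38, SE 0.17, limma adjusted p = 0.0227). *RPTOR*, the subunit that recruits 4E-BPs to the kinase, had 15.1 and 7.01 TPM against 26.3 and 28.2 TPM and did not pass (limma adjusted p = 0.0625). The subunits of mTORC1 thus did not share one direction.

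*DDIT4*, an inhibitor of mTORC1 signalling induced by ATF4, was at 385 and 331 TPM against 132 and 109 TPM (log2 difference -1.57, limma adjusted p = 0.0227). *CUL3*, the ubiquitin ligase scaffold that acts with *KLHL25* on unphosphorylated 4E-BP1, was at 34.2 and 19.95 TPM against 60.02 and 60.6 TPM (log2 difference 1.17, limma adjusted p = 0.0489). *KLHL25* had 8.55 and 3.82 TPM against 9.38 and 9.36 TPM and did not pass. The eIF4E kinases *MKNK1* and *MKNK2* had log2 differences of 0.59 and 0.64 and did not pass. The calls of *MTOR* and *CUL3* were lost after median-ratio scaling (limma adjusted p = 0.0506 and 0.0764) and without siCNOT4 replicate 1 (0.0648 and 0.273), and those of *MLST8* and *DDIT4* held in all 13 fits.

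The list of transcription factors known to act on *EIF4EBP1* had the lowest median, -0.41. Of 7 genes *ATF4* and *ATF5* fell, *EGR1* rose and 4 did not pass. *ATF4* was at 1005 and 1151 TPM in siControl and 358 and 352 TPM in siCNOT4 (log2 difference -1.60, SE 0.13, limma adjusted p = 0.0227). Its relative *ATF5* was at 77.7 and 88.7 TPM against 43.9 and 48.5 TPM (log2 difference -0.83, limma adjusted p = 0.0437), a call lost without siCNOT4 replicate 1 (0.407) and with the length trend removed (0.176). *EGR1*, an early response factor reported to repress *EIF4EBP1*, was at 14.4 and 7.41 TPM against 80.1 and 112 TPM (log2 difference 3.07, SE 0.35, limma adjusted p = 0.0227). *DDIT3*, which encodes CHOP, had a log2 difference of -0.41 and did not pass. *SMAD4* was at 36.1 and 21.2 TPM against 49.7 and 46.9 TPM (log2 difference 0.78), and *HIF1A* had a log2 difference of 0.44 with overlapping groups. Neither passed (limma adjusted p = 0.0973 and 0.366). The calls of *ATF4* and *EGR1* held in all 13 fits. The part of these factors in the *EIF4EBP1* values was not tested.

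*MYC* had a log2 difference of -0.82 and did not pass (limma adjusted p = 0.138), with 73.5 and 33.9 TPM in siControl and 27.2 and 28.5 TPM in siCNOT4. It was called lower after median-ratio scaling (-1.42, limma adjusted p = 0.0351) and quantile normalization (-1.29, limma adjusted p = 0.0357). It was also called without siControl replicate 1 (-0.28, limma adjusted p = 0.0313) and without siControl replicate 2 (-1.37, limma adjusted p = 0.000827), so its size rested on which siControl library was used. *EIF4E* is a textbook MYC target, so the promoter windows of the members were searched for the E-box CACGTG, which reads the same on both strands. The RefSeq windows (GRCh38.p14, 250 bases before to 50 after a start) covered 4 of the 5 genes, *EIF4E3* with 3 windows. *EIF4EBP1* had no window in the set used, so its promoter was not searched for this or the other motifs below. The windows hold the E-box at these places, shown 5′ to 3′ on the gene's strand with the E-box in capitals.
EIF4E, E-box at -225 (chr4:98929341-98929370, minus strand): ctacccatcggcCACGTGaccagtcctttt
EIF4E, E-box at -72 (chr4:98929188-98929217, minus strand): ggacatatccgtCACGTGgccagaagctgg
EIF4EBP3, E-box at -13 (chr5:140547637-140547666, plus strand): tgccagcagctgCACGTGgtcggctgagtc
Positions count from the start site of each RefSeq window to the first base of the motif, and that start site can lie inside the GENCODE gene bounds given above, as it does for *EIF4E*. The E-box is in 7.26% of 35116 promoter windows and was not in those of *EIF4EBP2* and *EIF4E3*. The element TGATGNAAN bound by ATF4 with C/EBP factors, searched on both strands, is in 3.61% of windows and was in 1 window of *EIF4E3* (at -13). The EGR element GCGNGGGCG, also searched on both strands, is in 9.43% of windows and was in another window of *EIF4E3* (at -39). The cyclic AMP response element TGACGTCA is in 1.85% of windows and was in none of the members' windows. A match describes letters and does not show binding.

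**Figure D4:**
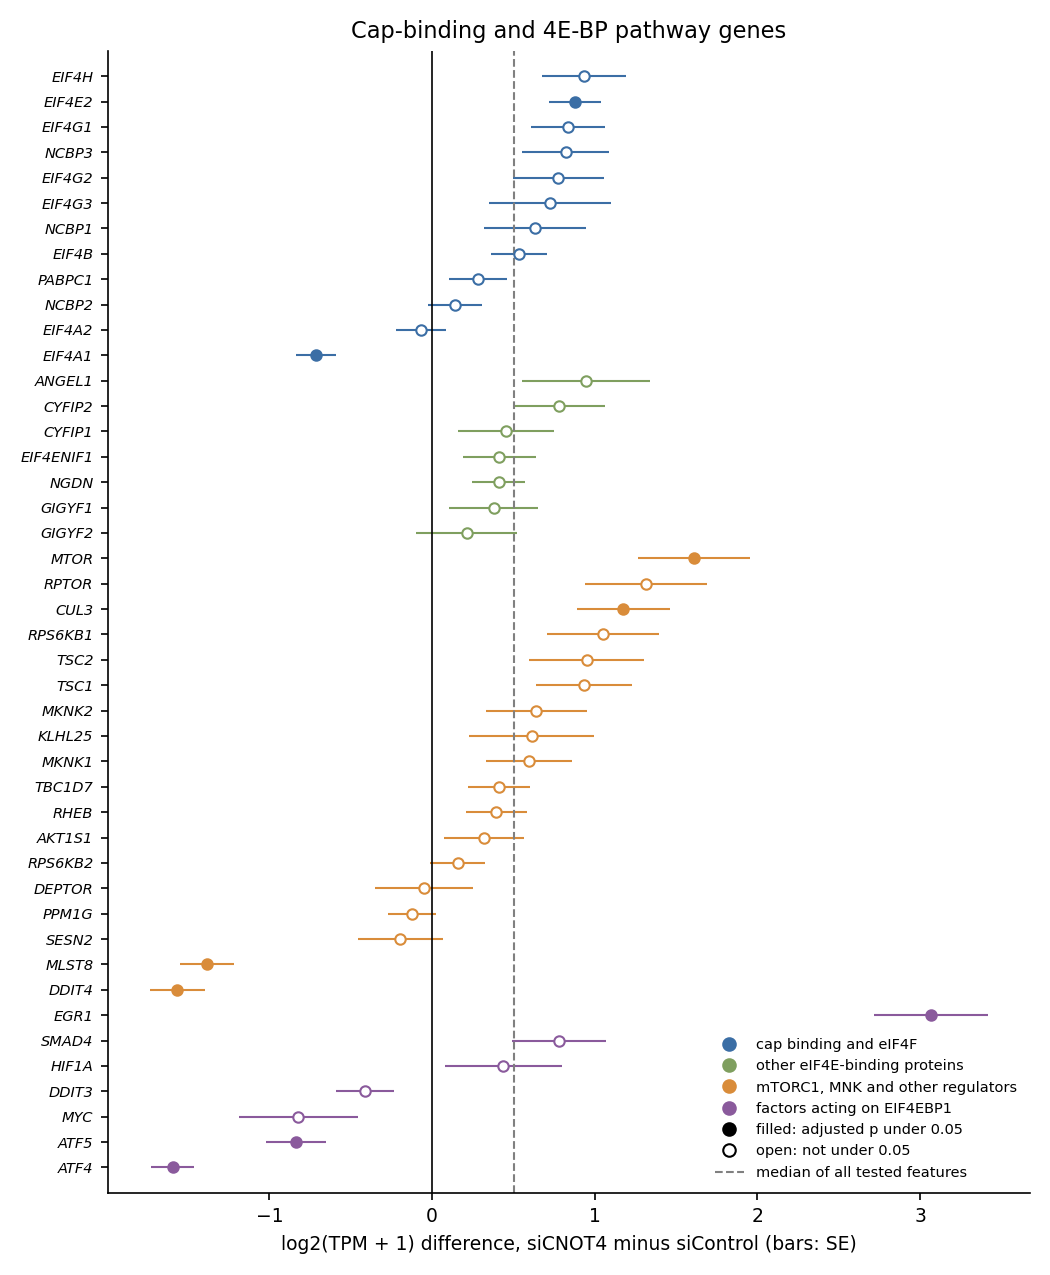
Difference of log2(TPM + 1) between siCNOT4 and siControl, with SE, for the 44 tested pathway genes, coloured by list. Filled points have a limma adjusted p under 0.05 and the dashed line is the median of all tested features, 0.50. *EGR1* lies farthest to the right at 3.07 and *ATF4* and *DDIT4* farthest to the left at -1.60 and -1.57.

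The library facts that bear on these values were as follows. The targeted *CNOT4* mRNA was at 6.43 and 4.73 TPM in siControl and 3.38 and 3.81 TPM in siCNOT4, lower in both but not called (limma adjusted p = 0.184). Of 9 markers of HEK293 cells, 8 had a mean of at least 1 TPM, while *NEFM* was lower. All 7 markers of blood, liver, fibroblast, endothelial and podocyte cells stayed at or below 0.816 TPM, and their sum was 0.157 to 0.305 TPM in siControl and 1.22 to 1.76 TPM in siCNOT4. Steps in the low TPM values, with GENCODE transcript lengths, gave an approximate depth of 33.1 to 35.1 in units of 1000000 reads per library. At that depth each member rested on at least about 250 reads in every library, fewest for *EIF4EBP3*.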

How the data were processed

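Poly(A) RNA libraries of HEK293 cells were sequenced, 2 per group, and groups were taken from the sample titles. The authors deposited TPM per gene symbol, 1 table per library, each summing to 1000000. FastQC 0.11.2, STAR 2.5.3a and featureCounts are named with hg19 in the submitters' processing notes. The annotation, gene lengths, read filters and use of strand are not given in the sources used here. TPM keeps no read totals, and a rise in abundant genes lowers all other values.

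Values were taken as log2(TPM + 1), and features with a mean of at least 1 TPM were compared with limma 3.58.1 in R 4.3.3 (lmFit, eBayes with a trend, no covariates). Benjamini-Hochberg adjustment ran over 14208 features, and 0.05 was the threshold. The step was tested on simulated data. Depth was estimated from 956 genes with low values that stepped in whole reads (within 0.02 of a whole multiple). Read numbers speak for counting error only. Of the features, 18438 matched GENCODE 29 by symbol and 957 through a RefSeq synonym (*NCBP3* stands as C17orf85 in the tables). Sequences came from GENCODE 29 transcripts and RefSeq promoters (GRCh38.p14), read with Biopython 1.88.

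Named genes were the 5 members, *CNOT4*, the pathway lists and the 5 features nearest to *EIF4EBP1* and to *EIF4EBP2*, of which 1 is not reported here. The members and lists were chosen with earlier results of these data known. Alternatives were another pseudocount, other filters, median-ratio scaling (each library divided by its median ratio to the geometric mean of all), quantile normalization, eBayes without a trend, a block on replicate number, each library left out, and removal of a length trend.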

Additional observations from a re-analysis of the deposited data

How the results depend on the processing

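The number of called features was 1792 (9 of the pathway genes). It was 558 with a pseudocount of 0.1, 908 (5) without a filter, 147 (4) at a mean of at least 5 TPM, 756 (4) by eBayes without a trend, and 3859 with the length trend removed. Leaving out 1 library gave 450 to 11311 called features and 4 to 39 pathway genes: 11311 and 39 without siControl replicate 1, 8171 and 28 without siControl replicate 2, 476 and 4 without siCNOT4 replicate 1, and 450 and 4 without siCNOT4 replicate 2. In each case the lone library was assumed to vary like the other group. Of the 9 called pathway genes, *EIF4E2* was called in 7 of 13 fits, *EIF4A1*, *MTOR*, *CUL3* and *ATF5* in 6 each, and *ATF4*, *EGR1*, *DDIT4* and *MLST8* in all 13. A block on the replicate number gave 3655 and 17. The numbers pair no cultures in the labels, and the deviations of same-numbered libraries had a correlation of 0.171 across features.

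After median-ratio scaling and quantile normalization, in that order, the log2 differences were -4.40 and -4.04 for *EIF4EBP1*, 0.47 and 0.61 for *EIF4EBP2*, -0.73 and -0.55 for *EIF4EBP3*, -0.33 and -0.36 for *EIF4E*, and -0.53 and -0.58 for *EIF4E3*. The median of all features moved from 0.50 to -0.055 and 0.019. With the length trend removed they were -3.30 for *EIF4EBP1*, 0.44 for *EIF4EBP3* and -0.11 for *EIF4E*. The cause of these shifts between scalings was not tested. Leaving out 1 library gave -3.94 to -3.65 for *EIF4EBP1*, 0.68 to 1.46 for *EIF4EBP2*, -0.44 to 0.18 for *EIF4EBP3*, 0.036 to 0.44 for *EIF4E* and -0.29 to 0.35 for *EIF4E3*. The siCNOT4 to siControl ratio of summed 4E-BP per *EIF4E* TPM, 0.188, was 0.146 without *EIF4EBP3*, 0.133 with *EIF4E2* and *EIF4E3* added to the divisor, and 0.152 to 0.247 with 1 library left out. *EIF4EBP1* was lower and *EIF4EBP2* higher in siCNOT4 in all of these settings, and the other 3 members changed sign in at least 1. With 2 libraries a group, an exact permutation test cannot go below 0.333.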
